A study of Eublepharis macularius with 18 samples.

Results

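The 7 genes Nbeal1, Zcchc24, Rcan2, Ikzf2, Lcor, Fignl2 and Usp49 are among those of the leopard gecko ventricle whose RNA stood far higher at 30 and 100 days after cryoinjury than before. They were picked by symbol from a table of 12376 genes because their levels at 30 and 100 days were high against control and against sham hearts, so those differences are given below as descriptions, with no test. All 7 carry mouse names and mouse Ensembl identifiers, which the authors gave to gecko transcripts: ENSMUSG00000073664, ENSMUSG00000055538, ENSMUSG00000039601, ENSMUSG00000025997, ENSMUSG00000025019, ENSMUSG00000095440 and ENSMUSG00000090115, in the order of the names. Poly-A RNA was sequenced from a piece of ventricle of 18 leopard geckos (Eublepharis macularius, a lizard), 3 animals in each of 6 groups. The groups were controls, shams and cryoinjured animals whose hearts were taken at 3, 14, 30 or 100 days post injury (dpi), in which a metal probe chilled in liquid nitrogen had frozen part of the ventricle wall after the pericardium was opened. Injured hearts were sampled beside the injury and control and sham hearts in a like place; strain, age, sex and the day on which sham animals were sampled are not given in the labels.

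The 7 proteins do unlike things in mammals. Rcan2 binds and inhibits calcineurin, the calcium-dependent phosphatase that moves NFAT factors into the nucleus and drives growth of heart muscle cells in the mouse. Nbeal1 is a BEACH domain protein, one of a family of very large proteins of vesicle traffic, and in human cells it helps the sterol sensor SCAP carry SREBP2 to the Golgi. Zcchc24 has a CCHC zinc knuckle, a fold of RNA-binding proteins. Ikzf2 encodes Helios, a zinc finger factor of the Ikaros family best known from regulatory T cells and cochlear hair cells. Lcor is a corepressor of ligand-bound nuclear receptors that recruits CtBP and histone deacetylases, and its mammalian locus also makes PALI1, a partner of the Polycomb complex. Usp49 removes ubiquitin from histone H2B in human cells, and Fignl2 is an AAA ATPase that cuts microtubules at the edge of migrating cells.

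The libraries held 12646411 to 34898541 reads, recovered from the deposited normalized counts, and all but 1 held at most 19825686. A count of 3 reads corresponded to 1.45 to 3.95 normalized counts. The tissue carried strong heart muscle RNA in every group, with 755952 to 1222699 normalized counts summed over 12 of 17 listed cardiomyocyte genes that were in the table. The 30 and 100 dpi libraries scored 23.8 to 30.5 on principal component 1 (19.9% of variance), and the other 12 libraries -47.1 to 2.72. The labels give no sequencing batch, so time and any batch that holds the 30 and 100 dpi libraries cannot be told apart. The row named Lars2 took 6.91 to 11% of reads in the 30 and 100 dpi libraries and 3.52 to 5.90% in the other 12, without overlap, and its part in the results was not tested. Levels below are normalized counts, and differences are on the log2(normalized count + 1) scale from limma with their SE, a scale that understates the change of low genes. In tissue RNA, fewer cells of a type and less RNA per cell cannot be told apart.

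**Figure D1:**
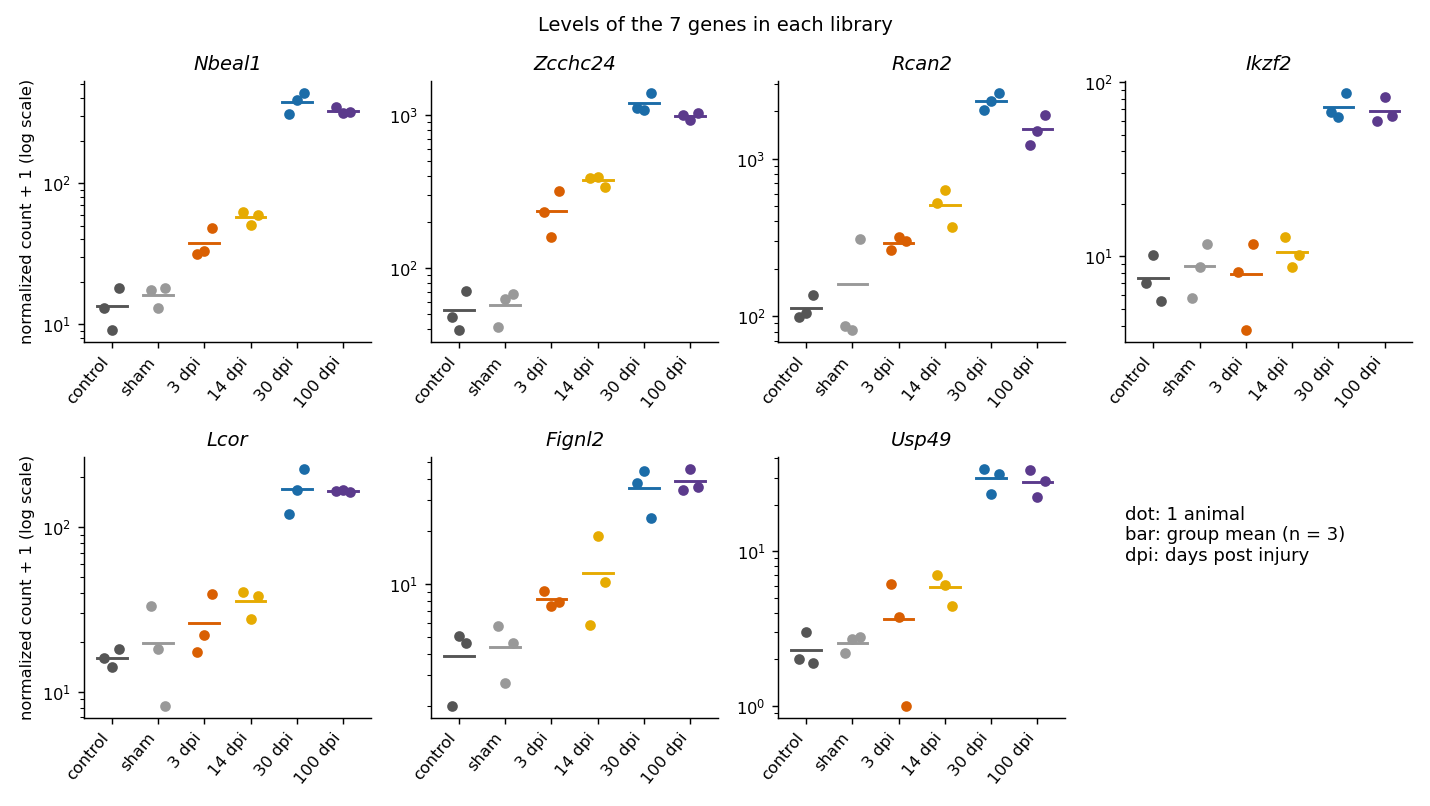
Normalized counts plus 1 on a log scale (vertical axis) in each of the 18 libraries, by group (horizontal axis, control to 100 days post injury, dpi), with 1 panel per gene, 1 dot per animal and a bar at the group mean (n = 3). In every panel the 6 libraries of 30 and 100 dpi lie above the other 12; for Nbeal1 the lowest of the 6 is at 309 and the highest of the 12 at 61.0.

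Rcan2, the calcineurin inhibitor, was the most abundant of the 7 per transcript length in every group. Its normalized counts were 98.6, 103 and 135 in control hearts and 85.7, 80.6 and 309 in sham hearts. They were 261, 316 and 300 at 3 dpi and 521, 636 and 368 at 14 dpi, then 2026, 2325 and 2617 at 30 dpi and 1226, 1500 and 1896 at 100 dpi. The third sham heart stood within the range of the 3 dpi hearts, and the 100 dpi hearts lay below the 30 dpi hearts without overlap. How many of all genes separate in this way was not counted, and Rcan2 did not pass the limma test between these times. Rcan2 averaged 2323 ± 296 at 30 dpi and 112 ± 19.7 in control hearts (SD, n = 3 each), a log2 difference of 4.36 ± 0.373 (SE). At 100 dpi it averaged 1541 ± 337, which is 3.76 ± 0.373 above control and 0.61 ± 0.373 below 30 dpi on the log2 scale.

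Nbeal1, the BEACH domain protein, showed the largest log2 difference of all 9887 tested genes at both 30 and 100 dpi against control, and ranked 3 and 5 at these times against sham. Those ranks come from comparisons that chose the genes, and they depend on the processing. Over the other settings the 30 dpi difference against control went down to 3.85 for Nbeal1 and 4.29 for Zcchc24. Nbeal1 had 12.1, 8.10 and 17.2 normalized counts in control hearts and 16.7, 12 and 17.1 in sham hearts. It had 30.6, 32.3 and 46.9 at 3 dpi, 61.0, 49.7 and 58.8 at 14 dpi, 309, 386 and 435 at 30 dpi and 346, 313 and 318 at 100 dpi. Every injured heart lay above every control and sham heart, and the step between 14 and 30 dpi was the widest on the way. The mean was 377 ± 63.4 at 30 dpi, against 12.5 ± 4.56 in control hearts (SD, n = 3 each), a log2 difference of 4.85 ± 0.261 (SE); at 100 dpi the mean was 326 ± 17.6 and the difference against control 4.66 ± 0.261.

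Zcchc24, the CCHC zinc finger gene, was already apart from control and sham in all 6 hearts of 3 and 14 dpi. Its normalized counts were 47.3, 38.5 and 70.6 in control hearts and 40.5, 61.7 and 66.7 in sham hearts. They were 232, 159 and 317 at 3 dpi, 389, 391 and 339 at 14 dpi, 1102, 1077 and 1389 at 30 dpi and 993, 920 and 1025 at 100 dpi. The 14 dpi hearts lay above the 3 dpi hearts without overlap, and 100 dpi lay below 30 dpi without overlap. How many of all genes separate in this way was not counted, and Zcchc24 passed the limma test in neither comparison. Zcchc24 averaged 1189 ± 174 at 30 dpi and 52.1 ± 16.6 in control hearts (SD, n = 3 each), with log2 differences against control of 4.52 ± 0.252 at 30 dpi and 4.25 ± 0.252 at 100 dpi (SE).

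Ikzf2, the Helios gene, showed no step before 30 dpi. It had 6.04, 9.12 and 4.52 normalized counts in control hearts, 4.76, 7.71 and 10.8 in sham hearts, 7.14, 2.77 and 10.7 at 3 dpi and 12, 7.65 and 9.22 at 14 dpi. It then had 66.6, 61.9 and 85.8 at 30 dpi and 59.2, 81.3 and 62.7 at 100 dpi. The 4 groups up to 14 dpi overlapped, and the lowest late heart was 4.95 times the highest of the other 12. Its log2 differences against control were 3.29 ± 0.444 at 30 dpi and 3.22 ± 0.444 at 100 dpi (SE).

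Lcor, the nuclear receptor corepressor, had 15.1, 13.2 and 17.2 normalized counts in control hearts, 32.1, 17.1 and 7.21 in sham hearts, 16.3, 21.2 and 38.1 at 3 dpi and 39.5, 26.8 and 36.9 at 14 dpi. It had 118, 167 and 225 at 30 dpi and 164, 166 and 163 at 100 dpi. Sham hearts spanned the whole range of the control hearts and overlapped 3 and 14 dpi, while the 100 dpi hearts were nearly equal. The 100 dpi values rest on 172, 186 and 338 reads, whose counting error alone is larger than their spread. The mean was 170 ± 53.6 at 30 dpi and 164 ± 1.6 at 100 dpi, against 15.2 ± 2.01 in control hearts (SD, n = 3 each). The log2 differences against control were 3.37 ± 0.423 at 30 dpi and 3.36 ± 0.423 at 100 dpi (SE).

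Fignl2, the microtubule-cutting ATPase, had 1.01, 4.05 and 3.62 normalized counts in control hearts, 4.76, 1.71 and 3.61 in sham hearts, 8.16, 6.46 and 6.83 at 3 dpi and 4.79, 17.8 and 9.22 at 14 dpi. It had 36.7, 43.5 and 22.9 at 30 dpi and 33.4, 44.7 and 34.7 at 100 dpi. All injured hearts lay above the control and sham hearts in normalized counts, the first 14 dpi heart by 4.79 to the highest sham heart's 4.76. Those 2 hearts held 4 reads each, so only their size factors set them apart. Its log2 differences against control were 3.25 ± 0.535 at 30 dpi and 3.41 ± 0.535 at 100 dpi (SE), and it had the narrowest gap of the 7, with 22.9 in the lowest late heart and 17.8 in the highest of the other 12.

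Usp49, the histone H2B deubiquitinase, was close to undetected before 30 dpi. It had 1.01, 2.03 and 0.905 normalized counts in control hearts and 1.19, 1.71 and 1.8 in sham hearts, each of which stands for 1 or 2 reads. It had 5.10 and 2.77 in the first and second 3 dpi hearts with no read in the third, and 5.98, 5.10 and 3.46 at 14 dpi. It had 33.3, 22.4 and 30.9 at 30 dpi and 32.5, 21.4 and 27.5 at 100 dpi, so the late hearts stood clear of all others. Summed over 3 hearts there were 73 reads at 30 dpi and 4 in controls, a depth-scaled ratio of 22.5 with an exact 95% counting interval of 8.42 to 84.7. At 100 dpi there were 115 reads, and the ratio to control was 20.9 with an interval of 7.95 to 78.1. These intervals cover counting error only, and the log2 differences of Usp49 (3.70 ± 0.642 at 30 dpi and 3.62 ± 0.642 at 100 dpi against control, SE) depend on the pseudocount of 1.

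**Figure D2:**
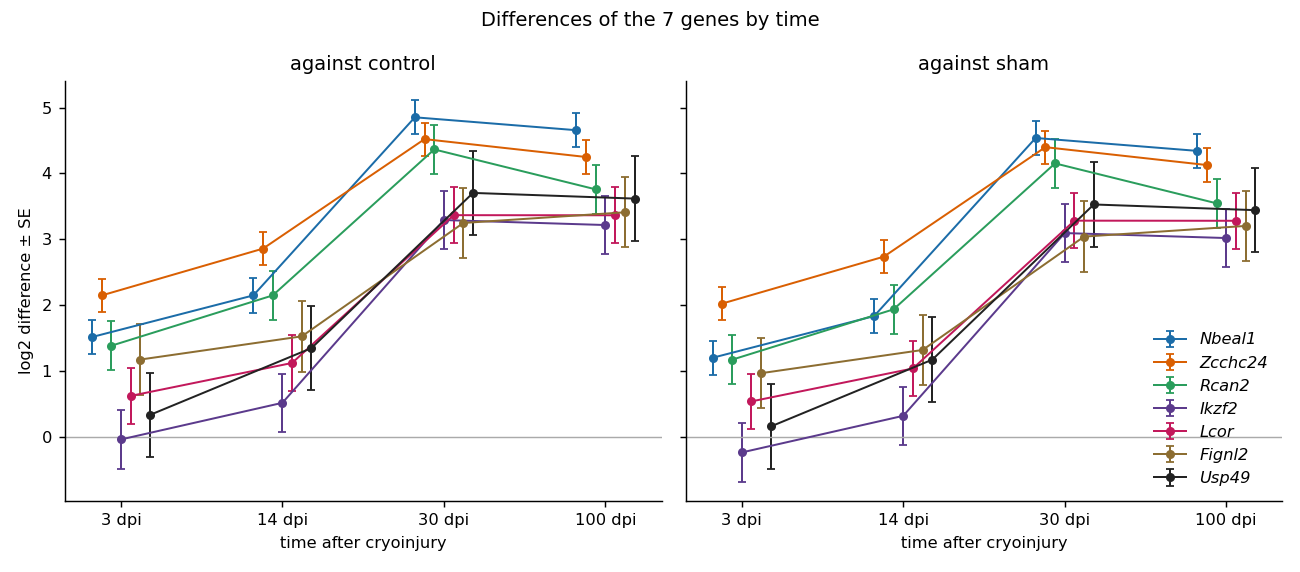
Log2 differences with their SE (vertical axis, from the limma model over all 6 groups, n = 3 animals a group) at 3, 14, 30 and 100 dpi (horizontal axis) against control (left) and against sham (right), 1 line per gene. All 7 genes lie at 3.02 or more at 30 and 100 dpi in both panels, while at 3 and 14 dpi they spread between -0.24 and 2.86.

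Against sham the late differences of the 7 genes were somewhat smaller than against control, with a median of 3.53 at 30 dpi and 3.44 at 100 dpi, against 3.70 and 3.62 for the same times over control. The medians over all 9887 tested genes in the 4 comparisons lay between -0.035 and -0.015. Both comparisons at a time share the injured hearts, and both times share the control and sham hearts. From 30 to 100 dpi the median difference of the 7 genes was -0.086, with single genes between -0.61 (Rcan2) and 0.16 (Fignl2). Between these times 76 of all tested genes, 0.769%, were called, and none of the 7 was. No gene of the 7 was more than 0.61 lower at 100 dpi than at 30 dpi on the log2 scale.

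All 6 libraries of 30 and 100 dpi lay above the other 12 for 329 of 9887 genes (3.33%), the 7 among them. Genes called higher in all 4 comparisons of 30 and 100 dpi with control and sham, by limma with the Benjamini-Hochberg adjusted p held under 0.05, numbered 306 (3.09%), and 3 genes (0.0303%) were called lower in all 4. Ranked by the smallest of the 4 differences, the 7 genes took places 1, 3, 5, 6, 9, 10 and 11. The lowest of them, Ikzf2, was at 3.02 and the next gene, Cbx7, at 2.86; the genes between them in rank were Cbx6, Unc5b, Agtr1b and Cd109. Those ranks come from the comparisons that chose the genes.

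**Figure D3:**
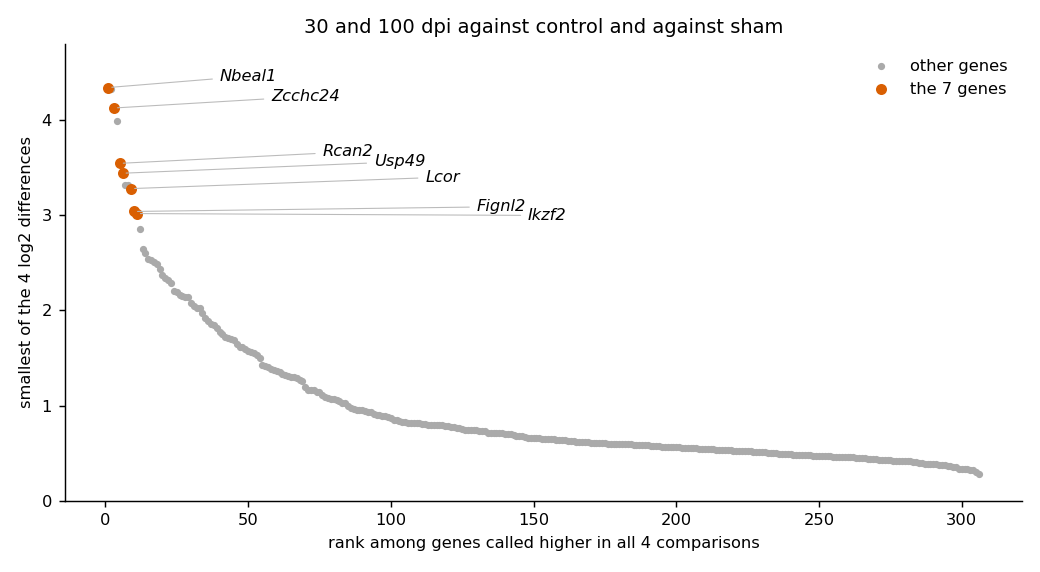
The smallest of the 4 log2 differences (vertical axis: 30 and 100 dpi, each against control and against sham) of the 306 genes called higher in all 4, by rank (horizontal axis). The 7 genes hold ranks 1 to 11 with 4 others between them, and the curve falls below 1 at rank 85.

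Compared per transcript length, in FPKM (fragments per kilobase of transcript, scaled to library depth), Rcan2, Zcchc24 and Lcor held the top 3 places in that order in every group, and the order of the other 4 changed. Rcan2 had 43.2 ± 5.20 FPKM at 30 dpi and 29.0 ± 6.26 FPKM at 100 dpi, against 2.14 ± 0.378 FPKM in control hearts (SD, n = 3 each). Zcchc24 had 17.1 FPKM at 30 dpi and 14.3 FPKM at 100 dpi, against 0.777 FPKM in control hearts, and Lcor had 2.85 and 3.07 FPKM against 0.209. At 30 dpi Nbeal1 followed at 2.53 FPKM, then Fignl2 at 1.23, Usp49 at 0.964 and Ikzf2 at 0.920. Lcor and Nbeal1 overlapped at 30 dpi, as did the last 3, while Nbeal1 stood clear of Fignl2. Among all genes Rcan2 stood at percentile 87.8 of FPKM at 30 dpi, against 17.3 in control hearts, and Nbeal1 at 18.8 against 0.314, so that Nbeal1 at its height was still a low-expressed gene.

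The early comparisons hold no 30 or 100 dpi heart and were tested. They share the control and sham hearts with the comparisons that chose the genes, apart from 14 dpi against 3 dpi, and the model takes its spread from all 6 groups. Low values in the shared hearts would raise the early differences too, so the counts of the 7 called are no independent support. Usp49, Fignl2 and Ikzf2 also passed the filter, a mean of 10 normalized counts, only through the 30 and 100 dpi hearts. Up to 14 dpi their group means were 1.31 to 4.85, 2.89 to 10.6 and 6.56 to 9.61, in that order. Their early tests thus depend on the hearts that chose the genes. Against control at 3 dpi, Zcchc24 rose by 2.15 ± 0.252 (adjusted p = 0.0029) and Nbeal1 by 1.51 ± 0.261 (adjusted p = 0.0339), 2 of the 7 genes, where 0.223% of all tested genes were called higher. Against sham at 3 dpi the same 2 rose, Zcchc24 by 2.02 (adjusted p = 0.00617) and Nbeal1 by 1.20 (adjusted p = 0.0429), with 0.668% of all genes called higher. Rcan2 at 3 dpi was 1.38 ± 0.373 above control and missed the threshold with limma (adjusted p = 0.0983), while DESeq2 called it (adjusted p = 0.0154).

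At 14 dpi 3 of the 7 genes rose, against control and against sham, where 0.718% of all tested genes were called higher against control and 0.698% against sham. Zcchc24 was 2.86 above control (adjusted p = 5.97e-05) and 2.74 above sham (adjusted p = 0.00011). Nbeal1 was 2.15 above control (adjusted p = 0.00114) and 1.83 above sham (adjusted p = 0.00428), and Rcan2 2.15 above control (adjusted p = 0.0139) and 1.93 above sham (adjusted p = 0.0236). Fignl2, Usp49, Lcor and Ikzf2 differed from control by 1.52, 1.35, 1.12 and 0.51 at 14 dpi, with adjusted p-values of 0.177 or more. Before any adjustment over genes, the 95% intervals against control were 0.39 to 2.66 for Fignl2 and -0.019 to 2.71 for Usp49. They were 0.22 to 2.02 for Lcor and -0.43 to 1.46 for Ikzf2.

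The calls differ in how far they rest on single hearts. Zcchc24 passed in each of the 6 fits that left out 1 compared heart, in all 4 comparisons, while in a fit of only the 2 groups it missed the threshold at 3 dpi (adjusted p = 0.123 against control and 0.0974 against sham). Nbeal1 at 3 dpi against control lost its call without control 1, control 2, 3 dpi 1 or 3 dpi 3 (adjusted p up to 0.153), and against sham without any 1 of the 6 hearts (adjusted p up to 0.164). At 14 dpi Nbeal1 passed without any single heart, but missed the threshold with only the 2 groups compared (adjusted p = 0.0510 against control and 0.0691 against sham) and with FPKM (adjusted p = 0.0620 and 0.116). Rcan2 at 14 dpi lost its call against control without control 1, control 2, 14 dpi 1 or 14 dpi 2 (adjusted p up to 0.103), and against sham without sham 1, sham 2, 14 dpi 1 or 14 dpi 2 (adjusted p up to 0.127). Against sham it also missed the threshold with edgeR (adjusted p = 0.0621) and with only the 2 groups compared (adjusted p = 0.158). Without sham 3, the sham heart with 309 normalized counts, Rcan2 was 1.8 above sham at 3 dpi (adjusted p = 0.00496) and 2.56 above sham at 14 dpi (adjusted p = 0.000114).

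No gene of the 7 was called in sham against control (differences of 0.08 to 0.31) or in 14 dpi against 3 dpi (0.35 to 1.02), and limma called no gene at all in either (0.0%). The medians over all tested genes were 0.00032 and -0.0044 in these comparisons. At an unadjusted p under 0.05 there were 479 genes in sham against control and 1205 in 14 dpi against 3 dpi. edgeR's quasi-likelihood test likewise called 0 genes in both, and DESeq2 called 2 higher and 27 lower in sham against control and 44 higher and 51 lower in 14 dpi against 3 dpi. For Zcchc24 and Nbeal1 the 95% intervals of 14 dpi against 3 dpi before adjustment were 0.18 to 1.25 and 0.079 to 1.19, and those of the other 5 genes held 0. Fignl2, Usp49 and Ikzf2 had few reads in all of these groups, so their missing calls leave a change open.

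Sorted by their 3 dpi differences against control, Zcchc24, Nbeal1 and Rcan2 came first, and Ikzf2, at -0.04 ± 0.444 against control at 3 dpi and 0.51 ± 0.444 at 14 dpi, came last. The step from 14 to 30 dpi holds the 30 dpi hearts, which served to choose the genes. In it Ikzf2 differed most, by 2.78, and Zcchc24 least, by 1.66, on the log2 scale. Rcan2, Usp49, Lcor, Nbeal1 and Fignl2 differed by 2.22, 2.36, 2.25, 2.71 and 1.72 there.

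The third 30 dpi heart was the highest of its group for Nbeal1, Zcchc24, Rcan2, Ikzf2 and Lcor, and the lowest for Fignl2. How often that heart was highest over all genes was not counted, so this describes 1 heart only. Over the 18 libraries, pairs of the 7 genes had Pearson r of log2 values between 0.830 (Zcchc24 with Ikzf2) and 0.966 (Nbeal1 with Zcchc24). The genes were all chosen for high values in the same 6 libraries, so these r are a description.

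The genes whose pattern over the 18 libraries was most like the mean of the 7 were Pdk3 (Pearson r 0.988), Hps5 (0.985), Lifr (0.980), Unc5b (0.979) and Agtr1b (0.977), followed by Rsbn1, Brox, Arfgef2, Akap11 and Ablim1, the last at 0.965. The 7 were chosen for high values in the same 6 libraries, which lay above the other 12 for 329 of 9887 genes (3.33%). A gene with such a late step tends to a high r here, so these r are a description. Pdk3 encodes a pyruvate dehydrogenase kinase, Lifr the receptor of leukemia inhibitory factor, Unc5b a netrin receptor and Agtr1b a type 1 angiotensin receptor. At 30 dpi against control their log2 differences were 2.31 (Pdk3), 2.63 (Lifr), 4.31 (Unc5b) and 3.74 (Agtr1b). Single genes of the 7 had other closest partners. For Zcchc24 these were B3galnt2, Rsbn1 and Cbx6 (r 0.976 to 0.967), for Ikzf2 Ttl, Rab22a and Cbx7 (0.958 to 0.954), and for Usp49 Hmbox1, Braf and Ncoa2 (0.974 to 0.961), of which Braf differed by only 0.65 at 30 dpi against control.

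Close relatives of the 7 genes were measured in the same hearts, and their differences against control at 30 and 100 dpi lay between -0.36 and 0.92. Rcan3, the other calcineurin regulator of the family in the table, had 678 ± 143 normalized counts at 30 dpi and 628 ± 61.5 at 100 dpi, against 676 ± 102 in control hearts (SD, n = 3 each), with log2 differences of -0.01 and -0.10 (adjusted p = 0.988 and 0.709). Nbeal2, the nearest relative of Nbeal1 and known from platelet granules, differed from control by 0.10 at 30 dpi and 0.29 at 100 dpi, Nbea by -0.32 and 0.06 and Lrba by 0.12 and -0.14, and none passed the test. The Helios relatives Ikzf4 and Ikzf5 differed by 0.09 and 0.22 at 30 dpi, and Ikzf3 was under the filter on low genes. Lcorl, the paralogue of Lcor, was 0.58 above control at 100 dpi (adjusted p = 0.0164) and 0.35 above sham (adjusted p = 0.157). Fign was 0.87 above control at 30 dpi and 0.92 at 100 dpi with an SE of 0.40 (adjusted p = 0.172 and 0.146), and Fignl1 differed by -0.21 and 0.55 without passing.

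**Figure D4:**
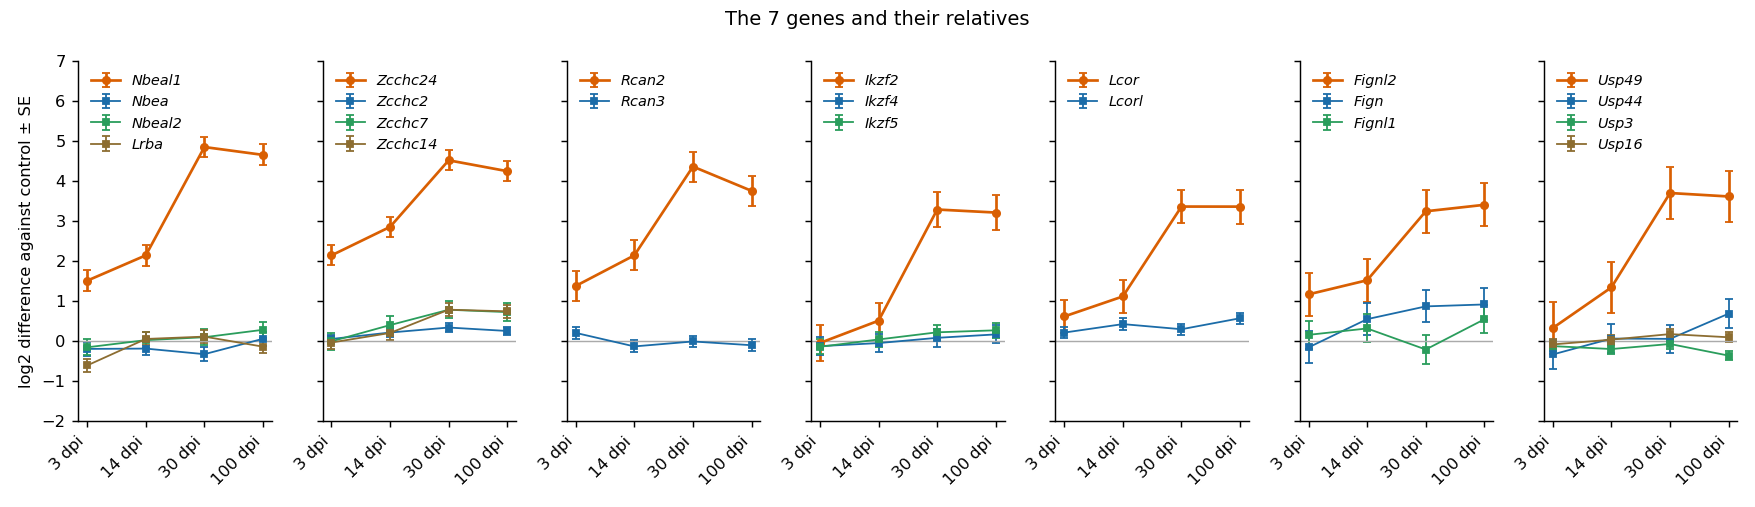
Log2 differences against control with their SE (vertical axis, n = 3 animals a group) at 3, 14, 30 and 100 dpi (horizontal axis) for each of the 7 genes (orange circles) and up to 3 family members in the table (squares). The 7 genes end between 3.22 and 4.66 at 100 dpi, and all plotted relatives lie below 1 at every time.

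The calcineurin pathway around Rcan2 was measured with 25 genes of a list of 29. At 30 dpi 2 of the 25 were called higher against both control and sham, where 4.92% of all genes were, and none was called lower. Ppp3cc, a catalytic subunit of calcineurin, averaged 1417 ± 52.9 normalized counts at 30 dpi, against 1127 ± 25.9 in control hearts (SD, n = 3 each), a log2 difference of 0.33 (adjusted p = 0.028). Gsk3b, a kinase that drives NFAT back out of the nucleus, differed by 0.32 (adjusted p = 0.028). With only the 2 groups compared, neither gene was called against both references at 30 dpi. The catalytic subunits Ppp3ca and Ppp3cb, the regulatory subunit Ppp3r1 and the factors Nfatc3 and Nfatc4 did not pass at either time, and Nfatc1 was 0.82 above control at 100 dpi (adjusted p = 0.0309) and 0.49 above sham (adjusted p = 0.226). At 100 dpi no gene of this list was called against both, where 4.69% of all genes were called higher. The median of the list at 30 dpi against control was 0.14, beside -0.026 over all tested genes.

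The BEACH domain list held 8 genes beside Nbeal1, all tested. Of these 1 was called higher against both references at 30 dpi and 2 at 100 dpi, where 4.92% and 4.69% of all genes were. Wdfy3, a protein of selective autophagy, was higher at 30 dpi (log2 difference 0.62 against control, adjusted p = 0.0019, and 0.73 against sham, adjusted p = 0.000623) and at 100 dpi (0.46, adjusted p = 0.0128, and 0.57, adjusted p = 0.00481). Its mean was 2258 ± 193 normalized counts at 30 dpi, against 1476 ± 220 in control hearts (SD, n = 3 each). Lyst, which shapes lysosomes, was higher at 100 dpi by 0.55 against control (adjusted p = 0.0243) and 0.52 against sham (adjusted p = 0.0419). Wdfy4, a low-expressed member, was called against 1 reference at each time, with -1.52 against control at 30 dpi (adjusted p = 0.005; -0.17 against sham, adjusted p = 0.791) and 1.17 against sham at 100 dpi (adjusted p = 0.0287; -0.17 against control, adjusted p = 0.752).

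The sterol sensing list held 19 tested genes of 25. Npc1, which exports cholesterol from lysosomes, was higher at 30 dpi by 0.70 against control (adjusted p = 0.000344) and 0.44 against sham (adjusted p = 0.0102), with 745 ± 32.7 normalized counts at 30 dpi and 459 ± 41.6 in control hearts (SD, n = 3 each). It was the sole member called against both references at 30 dpi, 1 of 19 where 4.92% of all genes were called higher, and at 100 dpi none was. The partners through which Nbeal1 acts in human cells did not pass the test. Scap differed from control by 0.16 at 30 dpi and -0.34 at 100 dpi, Srebf2 by -0.21 and -0.09 and Paqr3 by 0.24 and -0.14.

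Among 13 tested genes with CCHC zinc fingers beside Zcchc24, Tut4 and Tut7, the uridylyl transferases that tag RNA for decay, were higher at 100 dpi against both references. Over all genes 4.69% were called higher against both at 100 dpi, and 0.708% lower at 30 dpi. Tut4 averaged 1376 ± 57.1 normalized counts at 100 dpi, against 987 ± 43.8 in control hearts (SD, n = 3 each), a log2 difference of 0.48 (adjusted p = 0.0179), and Tut7 differed by 0.49 (adjusted p = 0.0132). Srsf7, a splicing factor, was lower at 30 dpi by 0.72 against control (log2 difference -0.72, adjusted p = 0.000592) and -0.39 against sham (adjusted p = 0.0372). Zcchc14 and Zcchc7 were 0.79 above control at 30 dpi (adjusted p = 0.00704 and 0.0284) and missed the threshold against sham (adjusted p = 0.161 and 0.0659).

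Around Ikzf2 and Lcor, 11 genes of the Ikaros family and its NuRD partners and 16 of Lcor and its corepressor partners were tested. In the first list none was called against both references at 30 or 100 dpi, in either direction. In the second, Nr3c1, the glucocorticoid receptor, was higher at 100 dpi by 1.02 against control (adjusted p = 0.000794) and 0.76 against sham (adjusted p = 0.00796), with 2559 ± 82.1 normalized counts at 100 dpi and 1266 ± 159 in control hearts (SD, n = 3 each). It was 1 of 16 called higher against both at 100 dpi, where 4.69% of all genes were. At 30 dpi Nr3c1 was 0.66 above control (adjusted p = 0.0136) and 0.40 above sham (adjusted p = 0.146). The Lcor partners Ctbp1, Ctbp2, Hdac6 and Ezh2 did not pass in either comparison at 30 or 100 dpi.

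Of 10 tested genes of the microtubule-severing list around Fignl2, Spast, the severing enzyme spastin, was higher at 100 dpi by 0.45 against control (adjusted p = 0.0238) and 0.48 against sham (adjusted p = 0.0246). Stmn1, which sequesters tubulin and is abundant in dividing cells, was lower at 30 dpi by 0.79 against control (log2 difference -0.79, adjusted p = 0.0356) and -0.90 against sham (adjusted p = 0.0229). Vps4a, an ATPase of membrane scission, was lower at 100 dpi, with differences of -0.49 against control (adjusted p = 0.00109) and -0.45 against sham (adjusted p = 0.0028). None of the 19 genes of the histone H2B ubiquitin cycle around Usp49, which holds the ligase subunits Rnf20 and Rnf40 and the deubiquitinases Usp3, Usp16 and Usp44, was called against both references, and the same held for 6 genes of the thyroid hormone axis. Over all 127 tested genes of these lists, 4 were called higher and 2 lower at 30 dpi against both references, and 6 higher and 1 lower at 100 dpi, where 4.92% and 4.69% of all genes were called higher and 0.708% and 1.13% lower. With only the 2 groups compared, no list gene was called against both references at 30 dpi, and with the length trend removed 1 was called higher and 1 lower. At 100 dpi 2 were called higher with only the 2 groups compared, and 2 higher and 7 lower with the length trend removed. Among the list genes called against both references in the model of all 6 groups, Nr3c1 at 100 dpi had the largest difference against control, 1.02.

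Markers of cell types were read beside the 7 genes. Of 14 T and B cell genes only Pax5, Lck and Zap70 were in the table, and their sum was 12.6 to 13.2 normalized counts at 30 dpi and 22.0 to 42.9 at 100 dpi, against 17.2 to 30.8 in control and 22.6 to 26.6 in sham hearts. Pax5 and Zap70 were under the filter on low genes, and Lck did not pass at 30 dpi (adjusted p = 0.301 against control and 0.201 against sham). Endothelial genes, 7 of 10 in the table, summed to 8023 to 8714 at 30 dpi and 9708 to 12883 at 100 dpi, against 5869 to 7800 in control hearts and 6142 to 8685 in sham hearts. Smooth muscle and pericyte genes, 8 of 10, summed to 56407 to 85555 at 30 dpi and 51490 to 75123 at 100 dpi, against 97419 to 113891 in control hearts and 70426 to 75348 in sham hearts. Macrophage and granulocyte genes, 5 of 12, overlapped with 1036 to 1322 at 30 dpi and 948 to 1946 at 100 dpi, against 1070 to 1873 in control hearts.

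Single markers differed at the late times, some of them earlier too, and those named here were picked after their values were seen. Cdh5, the cadherin of endothelial junctions, was higher at 30 dpi (1.99 against control, adjusted p = 0.000191, and 1.35 against sham, adjusted p = 0.004) and at 100 dpi (2.49, adjusted p = 3.02e-05, and 1.85, adjusted p = 0.000454). At 14 dpi Cdh5 was already 1.58 above control (adjusted p = 0.00926) and 0.94 above sham (adjusted p = 0.12). From 14 to 30 dpi it differed by 0.41 (adjusted p = 0.408). Ttn, the giant sarcomere protein titin, was higher by 1.08 at 30 dpi (adjusted p = 0.00117) and 0.90 at 100 dpi (adjusted p = 0.00473) against control, with 139697 ± 7104 normalized counts at 30 dpi and 66743 ± 11024 in control hearts (SD, n = 3 each). Cdh5 was the sole endothelial gene of 7 called against both references at 30 dpi, where Tek differed from control by -0.32 and Tie1 by -0.25 without passing, and at 100 dpi Flt1 was called beside it. Ttn was the sole gene of 12 cardiomyocyte genes called against both references at either time. Kcnj8, a pericyte channel, was the sole gene of 8 smooth muscle and pericyte genes called higher against both at 30 dpi. The sum of that list was 56407 to 85555 at 30 dpi, against 97419 to 113891 in control hearts and 70426 to 75348 in sham hearts. Prph, the neuronal filament peripherin, was called lower at 100 dpi, with differences of -2.02 against control (adjusted p = 0.0117) and -1.67 against sham (adjusted p = 0.04). It was the sole gene of 7 Schwann cell and neuron genes called against both at that time. The markers named here as called were the only ones of the 11 lists called against both references at 30 or 100 dpi. Over all tested genes 4.92% and 4.69% were called higher at these times, and 0.708% and 1.13% lower. Their part in the differences of the 7 genes was not tested.

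The ratio of normalized count to FPKM gives, up to a factor per library, the transcript length that the authors' pipeline assigned to a gene, and it played no part in choosing the genes. Nbeal1 had the longest transcript of the 7, at 2.67 times the median gene (percentile 95.7), and Fignl2 and Usp49 the shortest, at 0.508 and 0.523 times the median. Lcor was the one with a clear shift: its log2 ratio, centred on the library median, averaged 0.0090 ± 0.114 in the 6 hearts of 30 and 100 dpi and 0.351 ± 0.0755 in the 6 control and sham hearts (SD). The late hearts had 0.12, 0.064 and 0.078 at 30 dpi and 0.017, -0.20 and -0.027 at 100 dpi, and the lowest control or sham heart had 0.25, so the groups did not overlap. The assigned Lcor transcript was 0.789 times as long late as before, an exact two-sided permutation p of 0.00216, the smallest that 924 regroupings can give (adjusted p = 0.0192 over 9783 genes).

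**Figure D5:**
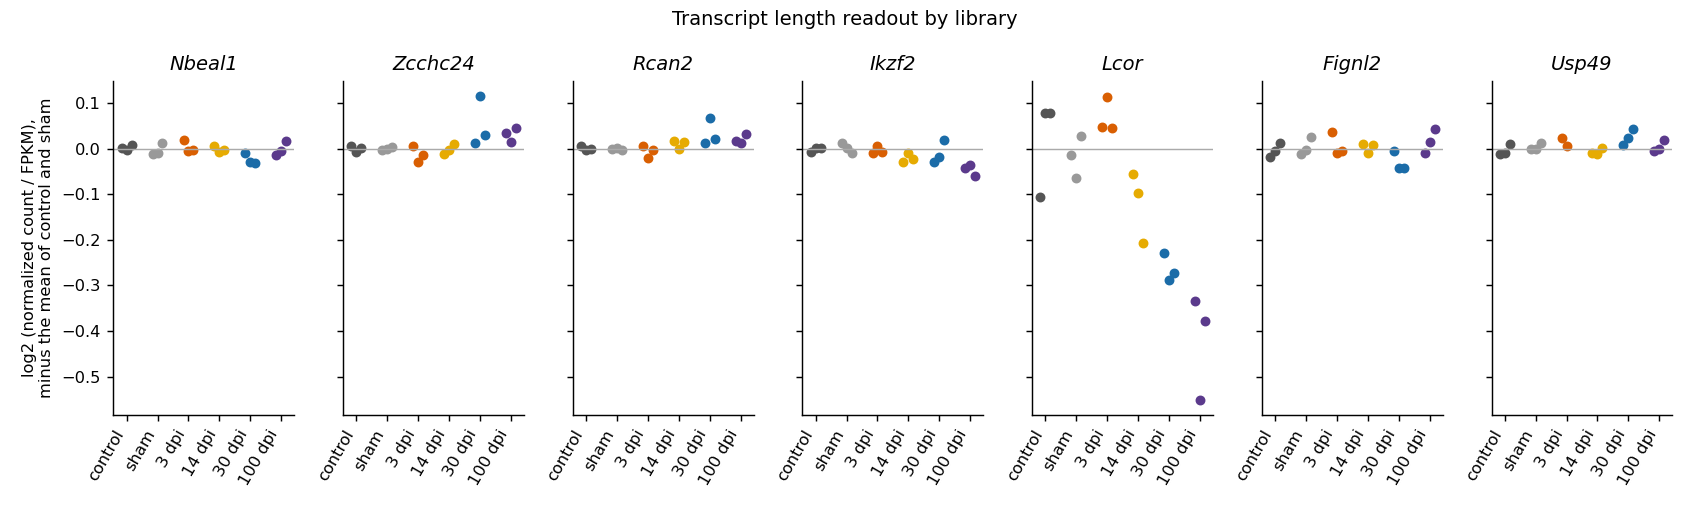
Log2 of normalized count over FPKM, centred on the library median and then on the mean of the control and sham hearts (vertical axis), in each library by group (horizontal axis), 1 panel per gene and 1 dot per animal; Usp49 has no value in the 3 dpi heart with no read. Lcor is lower on average at 14 dpi, where its hearts overlap the control and sham hearts, and lies below them at 30 and 100 dpi. The other 6 genes stay within a narrow band.

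A shift past the threshold was common in this readout, since 23.1% of all genes passed it, but the size for Lcor was at percentile 98.8 of absolute differences. The 14 dpi hearts had Lcor ratios of 0.30, 0.25 and 0.14, all above the late hearts. The first and second of them lay within the control range of 0.245 to 0.430. The 3 dpi hearts had 0.40, 0.47 and 0.40. Zcchc24 and Rcan2 also passed (adjusted p = 0.0192 each, by the exact permutation test) with shifts of 0.042 and 0.028, and Nbeal1, Ikzf2, Fignl2 and Usp49, with shifts between -0.028 and 0.015, did not. Zcchc24 missed the threshold without control 2, control 3, sham 1 or sham 2 (adjusted p up to 0.0533, exact permutation test), and Lcor and Rcan2 passed without any 1 of the 12 hearts. Control and sham libraries held few Lcor reads, 47 and 55 in sum over 3 hearts each, so the length assigned there rests on little data.

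The late differences of all genes varied with transcript length. With the genes in 10 equal bins by transcript length, the median log2 difference of 30 and 100 dpi against control and sham was -0.21 for the shortest genes and 0.25 for the longest. With each library's trend on length removed, the 7 genes differed from control by 3.17 (Ikzf2) to 4.50 (Nbeal1) at 30 dpi. The genes called higher in all 4 late comparisons then numbered 126 in place of 306, and 19 in place of 3 were called lower. The 7 genes were among the 126, but those comparisons chose them, so this is no test.

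Genes beside the 7 on the chromosomes were read from NCBI RefSeq's gene order for assembly MPM_Emac_v1.0. Of 14 flanking genes 6 were tested, next to 5 of the 7, and none beside Nbeal1 or Fignl2. Ppif and Anxa11, on either side of Zcchc24, differed from control by -0.12 and 0.28 at 30 dpi, Enpp5 beside Rcan2 by 0.01 and Med20 beside Usp49 by -0.52. At 100 dpi they differed by -0.15, 0.26, 0.06 and 0.25, in that order. Erbb4, the neuregulin receptor beside Ikzf2, was higher by 1.1 at 30 dpi and 0.81 at 100 dpi. Slit1 beside Lcor was lower, with log2 differences of -2.24 and -2.39. These values are given without a test.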

How the data were processed

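Ventricle RNA of 18 geckos, extracted separately from each animal, was sequenced after poly-A selection. Per the series' design text, the gecko genome served for alignment, followed by assembly of transcripts that took their names from mouse genes; HISAT2 2.2.0, StringTie 2.2.1 and Salmon 1.8.0 are listed in the submitters' processing notes, with no role given. The authors deposited a signal table of counts divided by a size factor per library (normalized counts) and a table of FPKM, both with 12376 rows; how the size factors were made is not given in the sources used here. Strand use in counting is not given either, so overlapping genes cannot be told apart. Whole reads were recovered from the normalized counts, with 100% of values whole within 0.1.

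Genes averaging 10 or more normalized counts (9887; 2489 left out) were tested with limma 3.58.1 (R 4.3.3) on log2(normalized count + 1), all 6 groups in 1 model with 12 residual degrees of freedom, two-sided, adjusted by Benjamini-Hochberg over all tested genes at 0.05, in 12 comparisons. For 3 against 3 animals an exact permutation test cannot go below 0.1. Length was read as log2(normalized count/FPKM), tested by an exact permutation test (SciPy 1.17.1) and adjusted over 9783 genes, where the plan had been to adjust over the 7 genes. The scripts were tested on simulated data.

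The 7 genes, the 20 gene lists (9 of pathways, 11 of cell types) and the tests were chosen with earlier results of these data known. Named genes are the 7, their family members, list genes called the same way against control and sham at 30 or 100 dpi, the 10 genes most like the mean of the 7 and the 3 most like each; other partners of the 7 were named for their known role. Alternatives were pseudocounts of 0.1 and 10, no filter, the FPKM table (pseudocount 0.1, minimum mean 0.5), TMM, edgeR 4.0.16, DESeq2 1.42.0, thinning, only the 2 groups compared, a block, removal of the length trend, and leaving out each library.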

Additional observations from a re-analysis of the deposited data

How the results depend on the processing

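The 7 genes were called higher in all 4 late comparisons in every setting run (5 of 5 tested with the FPKM table). Those comparisons chose the genes, so this is a description and no test. Genes called higher and lower in all 4 numbered 306 and 3, against 143 and 0 with only the 2 groups compared, 407 and 26 with DESeq2, 291 and 16 with FPKM, 264 and 2 with the block and 126 and 19 with the length trend removed. The median difference of the 7 genes moved to 4.38 (30 dpi against control) and 4.12 (against sham) with a pseudocount of 0.1, and to 2.80 at 30 dpi and 2.80 at 100 dpi against control, and 2.70 and 2.69 against sham, with a pseudocount of 10. At 30 dpi against control it was 4.36 with edgeR, 4.37 with DESeq2 and 4.15 after thinning.

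Of the 7 genes, those called at 3 dpi against control and against sham numbered 1 and 1 with FPKM and 0 and 0 with only the 2 groups compared, which also left 1 at 14 dpi against sham; thinning left 1 at 3 dpi against sham. Leaving out 1 library gave 1 to 2 against control and 1 to 2 against sham at 3 dpi. List genes called against both references numbered 2 (30 dpi higher) and 3 (100 dpi lower) with FPKM, and 0 (30 dpi higher), 0 (30 dpi lower) and 2 (100 dpi higher) with only the 2 groups. They numbered 3 (100 dpi lower) with DESeq2, and 1, 1, 2 and 7 (30 dpi higher and lower, 100 dpi higher and lower) with the length trend removed. Leaving out 1 library gave 2 to 5, 0 to 3, 2 to 6 and 1 to 2 in that order. The count of genes called higher in all 4 late comparisons was 192 without sham 2 and 203 without 100 dpi 1, its lowest values without a single library. At 30 dpi, 2 list genes were called higher without control 2, sham 2, 30 dpi 2 or 30 dpi 3.

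Deviations of 45 same-numbered pairs had a median r of -0.0081 (-0.179 to 0.230, 5 over 0.1). Those of 90 pairs with other numbers had a median r of 0.00035 (-0.218 to 0.257, 12 over 0.1). What the replicate numbers mark was not tested. With the replicate block, 1 list gene was called lower at 30 dpi.

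Signs turned for small differences. Usp49 at 3 dpi was -0.22 against control and -0.53 against sham with a pseudocount of 0.1, Ikzf2 at 3 dpi against control 0.0092 with a pseudocount of 10, 0.067 with edgeR and 0.072 with DESeq2, and Fignl2 in 14 dpi against 3 dpi -0.0052 after thinning. Without single libraries, sham against control ranged from -0.22 to 0.52 for Fignl2, -0.069 to 0.36 for Zcchc24, -0.40 to 0.61 for Lcor, -0.049 to 0.47 for Ikzf2 and -0.42 to 0.55 for Rcan2. At 3 dpi Ikzf2 ranged from -0.40 to 0.42 against control and -0.60 to 0.22 against sham, and Usp49 from -0.22 to 1.08 and -0.40 to 0.91. Fignl2 in 14 dpi against 3 dpi ranged from -0.078 to 0.77, and its length shift from -0.017 to 0.00041. The cause of these changes was not tested. Depth limits Usp49, Fignl2 and Ikzf2 most, since a library's 3 reads stand for 1.45 to 3.95 normalized counts.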
